A study of Mus musculus with 12 samples.

Results

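The Dlk1-Dio3 imprinted domain of mouse chromosome 12 was followed through 6 of its genes, Meg3, Rian, Mirg, Rtl1, Dlk1 and Dio3, taken by symbol from a count table of 24495 genes. They were chosen as genes of 1 imprinted domain whose maternally expressed noncoding RNAs had lower counts in the knockdown line, so the differences between the lines are given here as a description, without a test, and the changes over days within each line were tested. All 6 passed the filter on low counts, although Mirg had only 2 to 23 reads and Rtl1 0 to 21 reads in a library. In a fit of only the shCTSL Day 0 and Day 4 libraries Mirg and Rtl1 did not pass, so they entered the test of that change through the counts of other groups.

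The RNA came from CCE-Nanog-GFP mESCs, mouse embryonic stem cells that carry a Nanog-GFP reporter and were sorted for GFP. 1 line expressed an shRNA against cathepsin L (shCTSL, labelled CTSL KD), the lysosomal protease encoded by Ctsl, and the control line expressed a scramble shRNA (shSC, labelled WT and scr); both were made with lentivirus and puromycin. Each line was sequenced as undifferentiated cells grown with LIF (Day 0) and as embryoid bodies, aggregates of differentiating cells, treated with retinoic acid for 2 or 4 days (Day 2, Day 4). The 6 groups held 2 libraries each, and only 1 shCTSL line was sequenced, so the knockdown and any other property of that line cannot be told apart.

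Imprinted genes are expressed from 1 parental copy. In this domain the maternal chromosome gives the noncoding RNAs Meg3, Rian and Mirg, which lie in the same direction and host clusters of snoRNAs and microRNAs, and the paternal chromosome gives the protein-coding genes Dlk1, Rtl1 and Dio3. An intergenic region between Dlk1 and Meg3, methylated on the paternal copy, controls which set is expressed. The maternal RNAs are known to be silenced in some cultured stem cell lines, and DNA methylation, which is what distinguishes the copies, was not measured by these libraries.

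In mm9 the genes run along chromosome 12 as Dlk1 (chr12:110691033-110701546, plus strand), Meg3 (chr12:110779211-110809936, plus), Rtl1 (chr12:110827404-110838540, minus), Rian (chr12:110842155-110899919, plus), Mirg (chr12:110973191-110987665, plus) and Dio3 (chr12:111517278-111519307, plus), as annotated by GENCODE M1. Meg3, Rian and Mirg are annotated as lincRNAs and the other genes as protein-coding. Rtl1 faces the noncoding RNAs on the opposite strand. The sources used here do not say if the counting used strand, so reads of Rtl1 and of RNA antisense to it cannot be told apart.

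The promoters of Meg3, Rian and Dlk1 are shown because the first pair had the lowest shCTSL levels relative to shSC in the mean over the days and Dlk1 rose most over the days. Each window holds 250 bases before and 50 after the start site, from RefSeq (GRCm38.p6), on the plus strand. Capitals mark matches to the motifs searched on both strands, TGACGTCA (cyclic AMP response element), TATAA (TATA core), TGCCGC (the core bound by ZFP57, a zinc finger protein that protects imprints), CCAAT and GGGCGG (GC box).
Meg3 (chr12:109540746-109541045): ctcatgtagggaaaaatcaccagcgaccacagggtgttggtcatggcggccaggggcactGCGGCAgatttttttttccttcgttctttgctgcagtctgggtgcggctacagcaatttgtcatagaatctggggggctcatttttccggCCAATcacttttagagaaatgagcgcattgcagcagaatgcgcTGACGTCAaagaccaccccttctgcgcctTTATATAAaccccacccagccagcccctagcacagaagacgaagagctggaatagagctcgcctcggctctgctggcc
Rian (chr12:109603695-109603994): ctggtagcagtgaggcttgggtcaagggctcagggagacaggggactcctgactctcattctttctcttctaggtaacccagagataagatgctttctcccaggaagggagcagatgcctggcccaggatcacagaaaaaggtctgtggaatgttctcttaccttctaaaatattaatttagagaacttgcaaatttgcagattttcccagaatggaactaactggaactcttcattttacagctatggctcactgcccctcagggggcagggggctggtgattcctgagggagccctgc
Dlk1 (chr12:109452573-109452872): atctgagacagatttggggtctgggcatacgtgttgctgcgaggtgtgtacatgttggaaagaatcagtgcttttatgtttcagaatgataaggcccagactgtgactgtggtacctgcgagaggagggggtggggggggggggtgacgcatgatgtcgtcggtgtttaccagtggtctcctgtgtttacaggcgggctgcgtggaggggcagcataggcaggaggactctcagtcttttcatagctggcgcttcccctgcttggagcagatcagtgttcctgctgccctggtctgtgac

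The Meg3 window held a TGACGTCA at -57, TATAA at -28 on the minus strand and at -25 on the plus strand (overlapping), TGCCGC at -190 on the minus strand and CCAAT at -100, with 13 CpG. The Rian window held no CpG and the Dlk1 window 9 CpG, and neither had a match. Of 32851 RefSeq promoter windows of the same length, TGACGTCA was present in 1.79%, TATAA in 24.9%, TGCCGC in 11.6%, CCAAT in 37.4% and GGGCGG in 35.7%, and the median number of CpG was 7. The Dio3 window had 25 CpG, TATAA at -31, 2 CCAAT matches and 4 GC boxes, and the Mirg window had 10 CpG and 1 CCAAT. RefSeq windows were found for 5 of the 6 genes. A second RefSeq start of Meg3 (chr12:109545148-109545447) had 1 CpG and no match.

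Expression is given as normalized CPM, counts scaled to the library size after TMM normalization. Ctsl itself was lower in shCTSL than in shSC in every library of the same day, with a mean over the 3 days of -1.26 on the log2 scale (SE 0.0823, edgeR adjusted p = 0.000198). The shCTSL Day 2 libraries stood apart, since the SD of the log2 ratio between them was 0.673 against 0.246 to 0.432 in the other groups. Reads of the ribosomal RNA precursor Rn45s made 3.43% of replicate 1 of that group and 0.170 to 1.43% of every other library. The RNA came from whole cultures, so fewer cells of a type and less RNA per cell cannot be told apart.

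Meg3, the first noncoding RNA of the maternal set, was low in shCTSL on each day. In shSC it measured 6.48 and 6.07 CPM at Day 0, 7.73 and 7.70 CPM at Day 2 and 9.99 and 8.60 CPM at Day 4. In shCTSL it measured 2.16 and 1.90 CPM at Day 0, 2.40 and 1.83 CPM at Day 2 and 1.62 and 2.66 CPM at Day 4. Every shCTSL library lay under every shSC library of its day, without overlap.

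The Meg3 difference between the lines was -1.61 on the log2 scale at Day 0 (SE 0.257), -1.88 at Day 2 (SE 0.229) and -2.11 at Day 4 (SE 0.229), that is 3.06-, 3.69- and 4.32-fold lower in shCTSL. With offsets that removed each library's trend with exonic length (Meg3 has 18089 exonic bases) the differences were -1.43, -1.45 and -1.73. Both shCTSL libraries lay under both shSC libraries for 28.6% of the genes tested at Day 0, 22.7% at Day 2 and 31.5% at Day 4, and on all 3 days for 4.6% of them. Since the members were chosen by this difference, no test was made.

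Rian, the noncoding RNA that hosts the box C/D snoRNAs of the domain, had the lowest shCTSL levels relative to shSC in the mean over the days. In shSC it measured 7.85 and 6.69 CPM at Day 0, 6.14 and 7.0 CPM at Day 2 and 6.67 and 5.96 CPM at Day 4. In shCTSL it measured 2.01 and 2.53 CPM at Day 0, 1.29 and 1.45 CPM at Day 2 and 0.812 and 1.23 CPM at Day 4. The lines did not overlap on any day. Within shCTSL the Day 4 libraries also lay under the Day 0 libraries. The share of all genes in that order was not counted, and 27.6% of all genes were called lower over that interval in shCTSL. The difference between the lines was -1.69 (SE 0.228) at Day 0, -2.25 (SE 0.220) at Day 2 and -2.62 (SE 0.234) at Day 4 on the log2 scale, 3.23-, 4.74- and 6.14-fold lower in shCTSL.

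Mirg, a host of microRNAs near the far end of the maternal set, had 2 to 23 reads in a library. In shSC it measured 0.534 and 0.434 CPM at Day 0, 0.763 and 0.613 CPM at Day 2 and 0.972 and 0.971 CPM at Day 4. In shCTSL it measured 0.224 and 0.211 CPM at Day 0, 0.369 and 0.213 CPM at Day 2 and 0.866 and 0.541 CPM at Day 4. It too was without overlap on each day, but its difference between the lines was -1.11 (SE 0.559) at Day 0, -1.30 (SE 0.394) at Day 2 and only -0.47 (SE 0.331) at Day 4. Without shCTSL Day 4 replicate 1 the Day 4 difference was -0.84 and without replicate 2 it was -0.17.

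Rtl1, a retrotransposon-derived gene needed in the placenta, is paternally expressed but followed the noncoding RNAs in its order of the lines. In shSC it measured 0.152 and 0.434 CPM at Day 0, 0.697 and 0.569 CPM at Day 2 and 0.751 and 1.25 CPM at Day 4. In shCTSL it measured 0 and 0.105 CPM at Day 0, 0.246 and 0.170 CPM at Day 2 and 0.325 and 0.689 CPM at Day 4. The lines did not overlap on any day. At Day 0 this rested on 1 read in shCTSL against 9 in shSC, a ratio of 0.142 with a 95% interval of 0.00324 to 1.02 that covers counting error only, and the library without a read allowed up to 0.224 CPM (3 reads). The differences at Day 2 and Day 4 were -1.63 (SE 0.595) and -0.90 (SE 0.490) on the log2 scale, and the latter was -0.49 without shCTSL Day 4 replicate 1 and -1.55 without replicate 2.

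Dlk1, a transmembrane ligand-like protein of the Notch family that acts in progenitor cells, was at a low level at Day 0 and high in embryoid bodies of both lines. In shSC it measured 1.75 and 1.80 CPM at Day 0, 51.0 and 46.3 CPM at Day 2 and 92.6 and 114 CPM at Day 4. In shCTSL it measured 2.24 and 2.32 CPM at Day 0, 48.6 and 45.7 CPM at Day 2 and 75.9 and 78.0 CPM at Day 4. The lines overlapped at Day 2, whereas shCTSL lay above shSC at Day 0 and under it at Day 4. Of all genes tested, shCTSL lay under shSC for 28.6% at Day 0 and 31.5% at Day 4, and the share above was not counted. The Dlk1 differences at Day 0, Day 2 and Day 4 were 0.35 (SE 0.206), -0.05 (SE 0.12) and -0.43 (SE 0.119) on the log2 scale, and the last was -0.58 without shSC Day 4 replicate 1 and -0.27 without replicate 2.

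Dio3, the deiodinase that inactivates thyroid hormone, is the paternally expressed gene at the far end of the domain. In shSC it measured 2.29 and 0.929 CPM at Day 0, 1.10 and 1.23 CPM at Day 2 and 2.03 and 2.57 CPM at Day 4. In shCTSL it measured 1.86 and 2.32 CPM at Day 0, 1.6 and 0.979 CPM at Day 2 and 3.95 and 3.98 CPM at Day 4. The lines overlapped at Day 0 and Day 2, and shCTSL lay above shSC at Day 4, by 0.80 (SE 0.326) on the log2 scale. The share of all genes with shCTSL above shSC was not counted, and that with shCTSL under it was 31.5% at Day 4. At Day 0 the difference was 0.40 (SE 0.406), but -0.14 without shSC Day 0 replicate 2 and 1.14 without replicate 1.

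**Figure D1:**
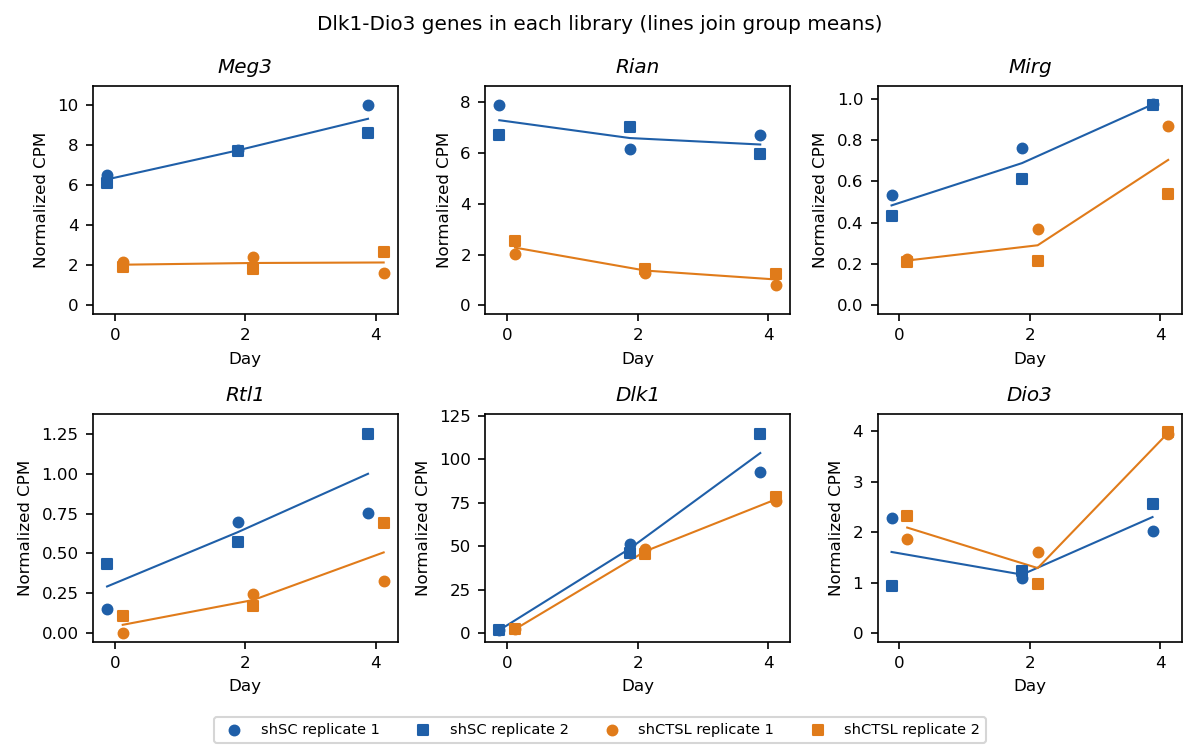
Normalized CPM (linear axis) of the 6 genes against day, with a point for each library and lines through the means of 2 libraries. Meg3, Rian, Mirg and Rtl1 lie lower in shCTSL on all 3 days, Dlk1 is high at Day 2 and Day 4 in both lines, and Dio3 is highest in shCTSL at Day 4 (3.95 and 3.98 CPM).

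Between genes, levels were compared as CPM per kb of exon. The lengths are those of GENCODE M1 whereas the reads were counted on RefSeq gene models, so the order holds as far as these models are alike. At Day 0 in shSC the order was Rian (0.887 ± 0.10, SD, n = 2), Dio3 (0.792 ± 0.473), Meg3 (0.347 ± 0.0160), Dlk1 (0.314 ± 0.00540), Mirg (0.152 ± 0.0223) and Rtl1 (0.0461 ± 0.0313), and the spread of the Dio3 libraries covered both its neighbours. In shCTSL at Day 0 Dio3 (1.03 ± 0.158) and Dlk1 (0.403 ± 0.00992) came before Rian (0.277 ± 0.0443) and Meg3 (0.112 ± 0.0105). At Day 4 Dlk1 led with 18.3 ± 2.73 CPM per kb in shSC and 13.6 ± 0.266 in shCTSL. In shSC it was followed by Dio3 (1.13 ± 0.186), Rian (0.771 ± 0.0612), Meg3 (0.514 ± 0.0543), Mirg (0.306 ± 0.000298) and Rtl1 (0.157 ± 0.0553). In shCTSL Dio3 (1.95 ± 0.0116) and Mirg (0.222 ± 0.0724) came next, and Rian (0.125 ± 0.0360), Meg3 (0.118 ± 0.0404) and Rtl1 (0.0797 ± 0.0405) did not differ beyond their spread.

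The change from Day 0 to Day 4 was then tested within each line. A call needed an edgeR adjusted p under 0.05 together with a fold change of 1.5 or more in either direction. In shSC, 3 of the 6 genes were called, all higher, and in shCTSL 5 of 6, of which 4 were higher and 1 lower, against 60.7% of all 15532 genes tested called in shSC (32.1% higher and 28.7% lower) and 59.9% in shCTSL (32.3% higher and 27.6% lower). Mirg and Rtl1 were among the higher calls of each line, and their calls were favoured in advance by how they passed the filter. The median log2 change of the 6 genes was 0.79 in shSC and 1.29 in shCTSL, beside 0.03 and 0.06 over all genes.

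Dlk1 rose the most, by 5.86 on the log2 scale in shSC (SE 0.164, edgeR adjusted p = 3.60e-09) and by 5.08 in shCTSL (SE 0.162, edgeR adjusted p = 8.50e-09), 58.0-fold and 33.8-fold. From Day 0 to Day 2 the rises were 4.77 (SE 0.161) and 4.37 (SE 0.161) on the log2 scale, both called. It rose further from Day 2 to Day 4 by 1.09 (SE 0.12, edgeR adjusted p = 0.000124) in shSC and by 0.71 (SE 0.12, edgeR adjusted p = 0.00177) in shCTSL, and the latter was not called by limma-voom with library weights (adjusted p = 0.0912) or in a fit of only those groups (edgeR adjusted p = 0.0835).

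Of the maternal RNAs, Rian fell in shCTSL, by 1.12 on the log2 scale from Day 0 to Day 4 (SE 0.275, edgeR adjusted p = 0.00446). In shSC its change was -0.19 (SE 0.194, edgeR adjusted p = 0.390), and the difference between these changes was not tested. By Day 2 Rian had fallen in shCTSL by 0.70 (SE 0.263, edgeR adjusted p = 0.0383). That earlier call was lost without any 1 of the shCTSL Day 0 and Day 2 libraries, of the shSC Day 2 libraries or of shSC Day 0 replicate 2, with adjusted p from 0.0518 to 0.182, and was not made by DESeq2 or limma-voom.

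Meg3 did not pass the fold cutoff in shSC, where the change from Day 0 to Day 4 was 0.57 (SE 0.211, edgeR adjusted p = 0.0333). Of 23 alternatives 8 called it, among them RLE normalization (0.62), DESeq2 (0.62) and limma-voom (0.59). A fit of only those groups (0.61) and one without both shCTSL Day 2 libraries (0.60) were also among them. The value was 0.60 without shCTSL Day 2 replicate 1 and 0.67 without shSC Day 4 replicate 2. With the offsets for exonic length it was 0.07. In shCTSL the change was 0.07 (SE 0.278, edgeR adjusted p = 0.824).

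Mirg rose from Day 0 to Day 4 by 1.01 in shSC (SE 0.377, edgeR adjusted p = 0.0352) and by 1.65 in shCTSL (SE 0.502, edgeR adjusted p = 0.0143). Both calls rest on few reads, and Mirg passed the filter on low counts through libraries of later days. In shSC the call did not hold without any 1 of the 6 shSC libraries or of the shCTSL Day 0 libraries (adjusted p from 0.0507 to 0.165), and in shCTSL it did not hold without either shCTSL Day 0 library or shCTSL Day 4 replicate 1 (0.0601 to 0.12). With DESeq2 neither was called.

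Rtl1 rose from Day 0 to Day 4 by 1.63 in shSC (SE 0.579, edgeR adjusted p = 0.0281), from 9 to 35 reads over both libraries. In shCTSL it rose from 1 read to 20 (edgeR adjusted p = 0.0164), 11.8 times as much per library size (counting interval 1.89 to 489). That test was made only in the fit of all groups, and in shSC Rtl1 passed the filter through libraries of later days. Leaving out replicate 1 of Day 0 or replicate 2 of Day 4 of the same line ended each call, with adjusted p from 0.0906 to 0.161, and length offsets ended that in shSC (0.0541).

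Dio3 rose in shCTSL, by 0.94 from Day 0 to Day 4 (SE 0.354, edgeR adjusted p = 0.0369) and by 1.66 from Day 2 to Day 4 (SE 0.349, edgeR adjusted p = 0.00575). The first call was lost without any 1 of the shCTSL Day 0, shCTSL Day 4 and shSC Day 2 libraries (adjusted p from 0.0550 to 0.196), and the second with limma-voom (0.345). In shSC the changes were 0.54 (SE 0.377, edgeR adjusted p = 0.228) and 0.97 (SE 0.359, edgeR adjusted p = 0.0677). Without shSC Day 0 replicate 1 the former was 1.28 and called, and the latter was called at 0.94 to 0.97 without either shCTSL Day 2 library or either shSC Day 0 library.

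**Figure D2:**
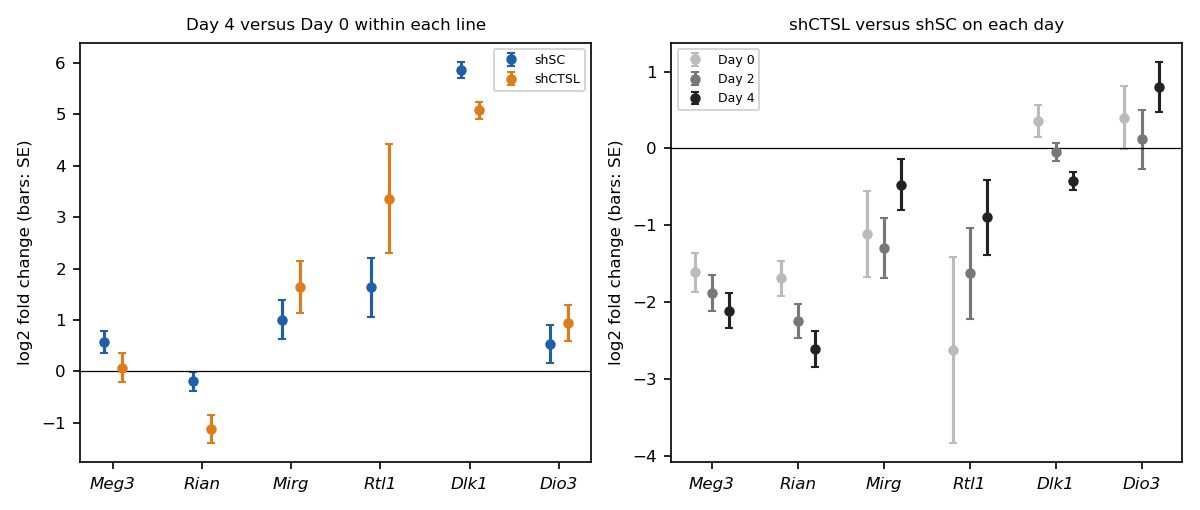
Log2 fold changes with SE bars for the 6 genes, Day 4 against Day 0 within each line (left) and shCTSL against shSC on each day (right, not tested). Dlk1 rose by 5.86 in shSC and 5.08 in shCTSL, and Meg3 and Rian sit at or under -1.61 in the right panel on every day.

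Between the shorter intervals, Dlk1 was 1 of the 6 genes called from Day 0 to Day 2 in shSC, beside 54.6% of all genes, and Dlk1 and Rian made 2 called in shCTSL, beside 55.5%. From Day 2 to Day 4, 1 was called in shSC (Dlk1) beside 23.8% of all genes, and 3 in shCTSL (Dlk1, Dio3 and Mirg) beside 23.4%. Mirg rose over that interval by 1.30 (SE 0.411, edgeR adjusted p = 0.0375), a call that was lost without any 1 library other than shCTSL Day 2 replicate 1 and shCTSL Day 4 replicate 2 (adjusted p from 0.0553 to 0.305).

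The balance of Rian to Meg3 was read as the share of Rian in the reads of both, which does not depend on the library size. In shSC it was 54.8% and 52.4% at Day 0, 44.3% and 47.6% at Day 2, and 40.1% and 41.0% at Day 4. In shCTSL it was 48.2% and 57.1%, then 35.0% and 44.2%, then 33.3% and 31.6%. The Day 4 libraries of each line lay under its Day 0 libraries, and the lines overlapped at Day 0. At Day 2 and Day 4 both shCTSL libraries lay under both shSC libraries, at Day 2 with a gap far smaller than the counting intervals. Over both libraries the share went from 53.6% (95% Wilson interval 48.6 to 58.4%) to 40.4% (36.5 to 44.4%) in shSC and from 52.0% (42.3 to 61.7%) to 32.3% (24.7 to 40.9%) in shCTSL. Meg3 has more than double the exonic length of Rian (18089 against 8197 bases), and with the length offsets the change from Day 0 to Day 4 in shSC was 0.07 for Meg3 and -0.50 for Rian in place of 0.57 and -0.19.

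**Figure D3:**
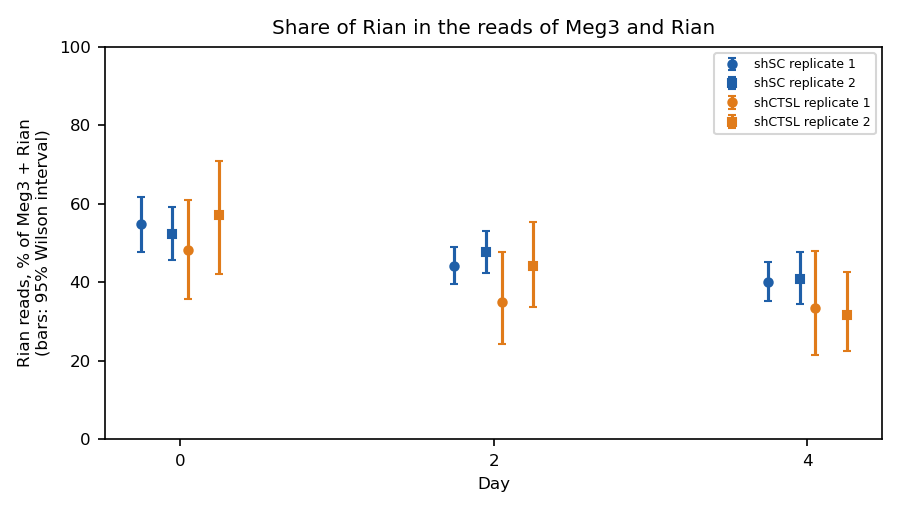
Share of Rian in the reads of Meg3 and Rian (percent, axis from 0 to 100) against day, with a point for each library and 95% Wilson intervals that cover counting error only. Both lines lie lower at Day 4 (40.1% and 41.0% in shSC, 33.3% and 31.6% in shCTSL) than at Day 0.

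Mirg took 3.43% of the reads of Meg3, Rian and Mirg at Day 0 in shSC (95% Wilson interval 2.05 to 5.68%) and 5.78% at Day 4 (4.20 to 7.90%). In shCTSL it took 4.85% (2.09 to 10.9%) and 17.9% (12.6 to 24.8%). The shCTSL Day 4 libraries gave 26.2% and 12.2%, both above the 5.51% and 6.25% of the shSC libraries of that day. These are the same reads as in the Day 4 difference of Mirg above. Meg3 and Rian make up most of the divisor, and their low counts in shCTSL were part of the choice of members. A higher Mirg share in shCTSL was thus favoured in advance. Mirg itself was lower in shCTSL at Day 4 (0.704 against 0.972 CPM, means of 2 libraries).

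The table held 77 rows that lie between Dlk1 and Dio3, of which 71 are other transcripts. Of the 61 microRNA rows, 49 had no read in any library, and the highest had 3 reads over all 12. Poly(A) libraries do not capture mature microRNAs, and why these rows were near empty was not tested. These 61 genes have 114 mature sequences with 104 different seeds (bases 2 to 8, the part that pairs with targets), of which 10 are shared by 2 genes. Sequences from RefSeq for 2 such pairs are shown, with the seed in capitals, to show how near these copies are.
mmu-miR-379-3p: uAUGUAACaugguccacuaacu
mmu-miR-411-3p: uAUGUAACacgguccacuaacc
mmu-miR-376b-5p: gUGGAUAUuccuucuaugguua
mmu-miR-376c-5p: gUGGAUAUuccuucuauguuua

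The 3 other transcripts with the most reads were Dio3os, AF357359 and 3110009F21Rik (5 reads in all). AF357359, a snoRNA row that lies within the maternal cluster, had 2 to 7 reads in each shSC library, 30 in all, and 0 to 2 in each shCTSL library, 3 in all. All shCTSL libraries of Day 0 and Day 4 were at 0, and at Day 2 the ratio was 0.333 (95% counting interval 0.0603 to 1.23).

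Dio3os, the antisense RNA that starts beside Dio3 (chr12:111513594-111516278 in mm9, minus strand), had 1 and 0 reads at Day 0 in shSC and 19 and 18 at Day 4. In shCTSL it had 2 and 0 reads at Day 0 and 43 and 47 at Day 4. It rose in both lines (edgeR adjusted p = 0.00117 in shSC and 0.000231 in shCTSL), with ratios of 29.2 (counting interval 4.93 to 1185) and 26.6 (7.14 to 223). Each Day 0 library held 0 to 2 reads, so Dio3os passed the filter on low counts only through libraries of later days. A rise was thus favoured in advance, and these p-values are not support for it. At Day 4 it differed between the lines by 1.19 (SE 0.400, edgeR adjusted p = 0.331), so like Dio3 it had more reads in shCTSL, but the difference did not pass.

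Genes on both sides of the domain were measured to see how far the line difference extended. Of the 20 flanking genes tested, which start between 1170 kb before and 1837 kb after the start of Meg3, 0 were called between the lines in the mean over the days (edgeR), beside 0.27% of all genes. DESeq2 also called 0, and 4 of the 20 had an unadjusted p below 0.05, beside 22.6% of all genes. The highest difference was 0.55 for Slc25a29 (SE 0.151, edgeR adjusted p = 0.152), a mitochondrial amino acid carrier, and the lowest -0.45 for Rcor1 (SE 0.229, edgeR adjusted p = 0.255), a corepressor subunit, which without shCTSL Day 2 replicate 2 was called at -0.81. Their median was -0.02, beside -1.34 for the 6 genes of the domain and 0.00 over all genes, and the members' values had chosen them.

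**Figure D4:**
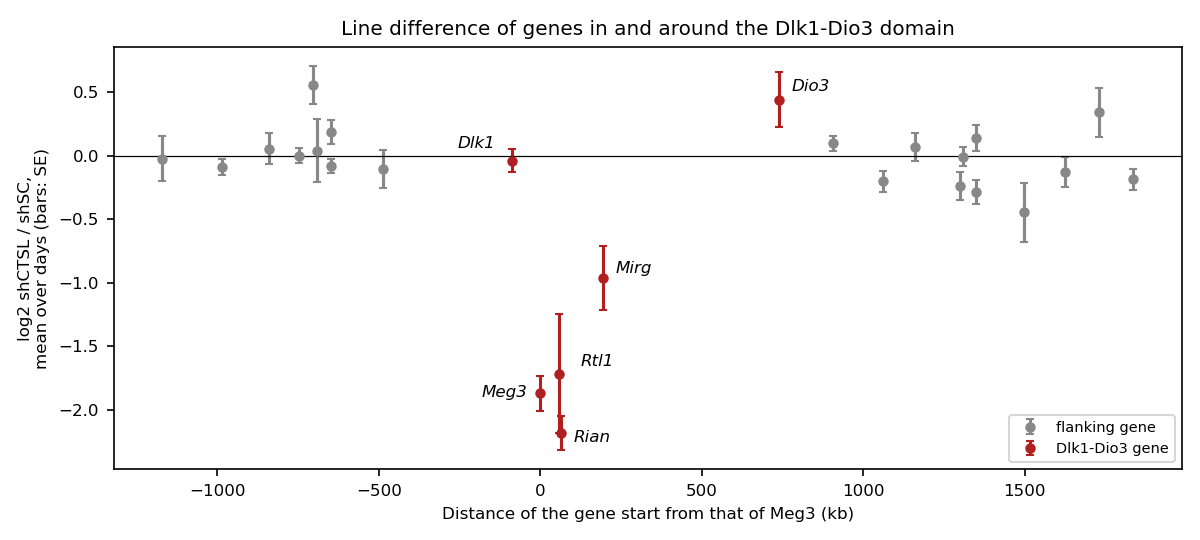
Log2 difference of shCTSL from shSC, mean over the days, with SE bars, against the distance of each gene's start from that of Meg3 (kb), for the 6 genes of the domain and 20 flanking genes. Meg3, Rian, Rtl1 and Mirg lie at -0.96 or lower, and the flanking genes between -0.45 and 0.55.

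From Day 0 to Day 4, 10 of the 20 flanking genes were called in each line, 6 higher and 4 lower in shSC and 7 higher and 3 lower in shCTSL, which is under the 60.7% and 59.9% of all genes called. Eml1, which encodes a microtubule-binding protein, rose by 2.99 in shSC (SE 0.314) and 2.40 in shCTSL (SE 0.314), and Hsp90aa1, the inducible HSP90 chaperone, fell by 2.18 in both (SE 0.203). Slc25a47 rose by 2.56 (SE 0.355) and 3.34 (SE 0.397).

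Factors known to set or keep imprints were read in the same way. Of 26 listed, 25 were tested (Tdg was too low). From Day 0 to Day 4, 19 were called in each line, 4 higher and 15 lower in shSC and 3 higher and 16 lower in shCTSL, beside 28.7% and 27.6% of all genes called lower. The lower group held Dnmt3l, the cofactor of the de novo DNA methyltransferases (-4.48 in shSC, SE 0.206, and -4.40 in shCTSL, SE 0.205), Dnmt3b, one of those enzymes (-3.25, SE 0.126, and -3.06, SE 0.125), Tet1, which oxidizes methylated cytosine (-3.94, SE 0.286, and -4.08, SE 0.289) and Zfp57 (-2.74, SE 0.101, and -2.99, SE 0.102). Tet3, a relative of Tet1, rose by 3.05 and 3.03, and Aff3, a protein that binds the intergenic control region of this domain, by 2.39 and 3.06.

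Between the lines 0 of the 25 factors were called in the mean over the days (edgeR), beside 0.27% of all genes, although 12 had an unadjusted p under 0.05, beside 22.6% of all genes. Their median difference was -0.20. Aff3 had the lowest value, -0.61 (SE 0.162, edgeR adjusted p = 0.131), and DESeq2 called it (adjusted p = 0.0278). It measured 6.47 ± 0.124 CPM in shSC and 3.11 ± 0.0718 CPM in shCTSL at Day 0 (SD, n = 2), and 34.0 ± 2.11 and 26.0 ± 1.72 CPM at Day 4. Without shCTSL Day 2 replicate 2, Aff3 (-0.81), Tet2 (-0.98) and Tet1 (-0.60) were called. Trim28, the corepressor recruited by ZFP57, had the highest value, 0.13 (SE 0.0876, edgeR adjusted p = 0.358).

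For the 45 factors and flanking genes the change to Day 4 was called as different between the lines for 0 (edgeR), beside 0.00644% of all genes, with 2 at an unadjusted p under 0.05 (6.71% of all genes) and 0 with DESeq2. The largest in size was that of Amn, an endodermal membrane protein, at 2.18 (SE 0.493, edgeR adjusted p = 0.492), which was called at 2.18 without shCTSL Day 2 replicate 1 (adjusted p = 0.0299) and at 2.19 without replicate 2 (0.0284).

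Markers of cell types moved with the days and in part with the lines. The summed level of 8 pluripotency markers was 5880 to 6373 CPM at Day 0 and 372 to 444 CPM at Day 4. The 8 fibroblast markers summed to 7.27 to 11.2 CPM at Day 0, where Lum was at 0 in both lines. At Day 4 they summed to 393 to 413 CPM, with the lines overlapping. Col3a1 made most of that Day 4 sum (333 CPM in shSC, 339 CPM in shCTSL). Thy1 went the other way, from 5.81 CPM at Day 0 to 1.98 CPM at Day 4 in shSC and from 3.82 to 1.57 CPM in shCTSL. Lum stayed at 0.148 CPM in shSC and 0.0246 CPM in shCTSL at Day 4. The 8 extraembryonic endoderm markers summed to 200 to 232 CPM at Day 0, with Ttr at 0 in both lines, and 788 to 875 CPM at Day 4. The 8 neural markers summed to 229 to 263 CPM at Day 0 and 143 to 193 CPM at Day 4.

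At Day 0, where Meg3 and Rian were already low in shCTSL, the summed level of 5 of the 6 lists was lower in shCTSL without overlap. Of single genes tested, 28.6% lay so on that day. The pluripotency markers summed to 6320 to 6373 CPM in shSC and 5880 to 5952 CPM in shCTSL, and the 8 mesoderm and endothelial markers to 98.1 to 100.1 and 69.7 to 76.9 CPM. The fibroblast markers summed to 10.3 to 11.2 CPM in shSC and 7.27 to 8.35 CPM in shCTSL, the neural markers to 248 to 263 and 229 to 236 CPM, and the 8 trophoblast markers to 106 to 107 and 95.6 to 104 CPM, with Prl3d1 at 0 in both lines. Within the trophoblast list only 3 of 8 were lower by their mean, and Tfap2c (34.5 CPM in shCTSL and 55.7 CPM in shSC) made the lower sum, while the keratins Krt8 (34.8 and 26.5 CPM) and Krt18 (25.1 and 18.6 CPM) were higher. By their means 6 of 8 pluripotency, 7 of 8 mesoderm and endothelial, 5 of 8 fibroblast and 4 of 8 neural markers were lower in shCTSL. Pecam1 made most of the mesoderm and endothelial sum (60.5 CPM in shCTSL, 83.5 CPM in shSC), and Kdr was near equal (2.16 and 2.18 CPM). Tubb3 made most of the neural sum (148 and 170 CPM). Col1a1 (3.23 and 4.15 CPM) and Thy1 (3.82 and 5.81 CPM) made most of the fibroblast sum.

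At Day 2 the summed level of the mesoderm and endothelial list was lower in shCTSL (56.6 to 93.8 CPM, against 164 to 173 CPM), as was the fibroblast list (23.8 to 27.4 against 31.0 to 31.7 CPM), and the trophoblast list was higher (278 to 414 against 210 to 242 CPM), as was the neural list (164 to 184 against 151 to 153 CPM). At Day 4, where Dio3 was higher in shCTSL, the trophoblast list was higher there (565 to 668 against 353 to 395 CPM) and the neural list lower (143 to 154 against 167 to 193 CPM). The trophoblast sums were mostly Krt8 and Krt18, which other epithelia also express. These measured 249 and 328 CPM in shCTSL at Day 4, against 134 and 195 CPM in shSC, and 131 and 168 CPM at Day 2, against 71.3 and 102 CPM. Tfap2c went the other way (15.5 against 23.4 CPM at Day 4 and 22.6 against 29.1 CPM at Day 2), as did Eomes (8.34 against 11.1 CPM) and Elf5 (0.332 against 0.618 CPM) at Day 4, while Eomes was 18.9 CPM in both lines at Day 2. In the neural list 7 of 8 were lower by their mean at Day 4, and 4 of 8 were higher at Day 2. By their means 5 of 8 mesoderm and endothelial markers were lower at Day 2, and Acta2, Mixl1 and T were higher. Kdr was the largest part of that sum (38.9 ± 19.3 CPM in shCTSL, SD, n = 2, and 95.4 CPM in shSC). In the fibroblast list 6 of 8 were lower at Day 2. Single genes lay lower in shCTSL without overlap in 22.7% of those tested at Day 2 and 31.5% at Day 4. The share above was not counted. Hand1 is in both the mesoderm and the trophoblast list. The part of these cell types in the differences of the domain was not tested.

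The genes most like Meg3 were named among 13767 genes with a mean of at least 1 CPM, by Pearson correlation of log2 CPM over the 12 libraries, which share their lines, days and depth. Outside the domain they were Mark3 (0.85), Otub2 (0.84), Zfp951 (0.84), Inpp5a (0.83) and Tmem57 (0.79), while Rian had 0.92, Mirg 0.65, Rtl1 0.65, Dlk1 0.14 and Dio3 -0.28. After the mean of each day was subtracted, they were Mark3 (0.98), Suclg2 (0.95), Smoc1 (0.95), Zfp951 (0.94) and Uxs1 (0.94), beside 0.99 for Rian, 0.81 for Mirg, 0.81 for Rtl1, 0.21 for Dlk1 and -0.55 for Dio3. What remains of Meg3 after that step is mainly its line difference, by which the members were chosen. High values for Rian and Mirg were thus favoured in advance.

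Likeness of pattern did not mean likeness of size. Mark3, a kinase gene that also lies on chromosome 12, differed between the lines by -0.26 on the log2 scale in the mean over the days, and Zfp951, a zinc finger gene, by -1.44, beside -1.87 for Meg3 and -2.18 for Rian. Otub2 and Smoc1 are on chromosome 12 as well, with -0.61 and -0.39. Zfp951 measured 12.1 CPM in shSC and 3.53 CPM in shCTSL at Day 0 and 8.64 and 4.20 CPM at Day 4, as means of 2 libraries.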

How the data were processed

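Poly(A) RNA was selected and made into directional libraries. According to the submitters' processing notes and the study's methods, the authors checked reads with FastQC 0.11.2 and mapped them with STAR 2.3.0e (mm9 build). Poorly mapped reads, mitochondrial reads and contigs were taken out with SAMtools 0.1.19, and featureCounts 1.6.2 gave the counts for RefSeq genes. The deposited values are unnormalized read counts of 24495 genes. The 12 libraries hold 11171111 to 27155553 reads, and intervals and limits for few reads cover counting error only.

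The analysis used edgeR 4.0.16 (R 4.3.3). A minimum count of 10 in filterByExpr left 15532 genes. A quasi-likelihood model with a mean for each group, after TMM normalization, was fitted to all libraries at once and had 6 residual degrees of freedom. p-values were adjusted by the Benjamini-Hochberg method over all genes tested. A call needed an adjusted p under 0.05 and a 1.5-fold change. The SE of a log2 fold change is its size divided by the square root of the F statistic. The fit was tested on simulated data. Log2 CPM for likeness used a prior count of 2. Nothing in the sources used says that the libraries of a group came from separate cultures beyond the study naming them biological replicates, so p-values measure the spread between these libraries.

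Alternatives were RLE normalization, DESeq2 1.42.0, limma-voom (limma 3.58.1) with quality weights, 2 other filters, 2 other fold cutoffs, offsets for exonic length, a fit of only the groups compared, the replicate number as a block, and each library left out. Positions and exonic lengths came from GENCODE M1 (mm9), not from the RefSeq models used for the counts, with 20380 genes found by symbol and 1651 by another name. Promoters and microRNAs came from RefSeq (GRCm38.p6). Figures were drawn in Python 3.11.15 with matplotlib 3.10.9.

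The members and the lists of genes were chosen with earlier results of these data known. The rule for names took the 6 members, up to 8 called genes of the factor and flanking lists by size or else the largest difference each way, the 5 genes most like Meg3 by each measure, and the 3 other transcripts of the domain with the most reads. Dio3os was followed as one of these, and Tet1, Tet2 and Amn were named after their values were seen.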

Additional observations from a re-analysis of the deposited data

How the results depend on the processing

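The counts of called genes were recomputed under each alternative, and 248 of 293 values stayed within 1.5 times the count reported. With the replicate number as a block 0 of these counts moved, and the same 1, 3 and 1 of the 6 domain genes were called in shSC (Day 2 against Day 0, Day 4 against Day 0, Day 4 against Day 2) and 2, 5 and 3 in shCTSL. The replicate numbers were not treated as pairs in the main fit. Deviations from the group mean were correlated between same-numbered libraries over 15 pairs of groups. These correlations were -0.359 to 0.156 and exceeded 0.1 in 1 pair. With 2 libraries a group they cannot show whether the libraries were paired in culture or preparation.

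For the domain genes in shSC, limma-voom called 2 from Day 0 to Day 2, and leaving out a library gave 1 to 2. From Day 2 to Day 4 in shSC, 2 were called with no filter on low counts, with exonic length offsets, with limma-voom, with only the groups compared and without both shCTSL Day 2 libraries, 0 at a log2 fold change of at least 1.5, and 1 to 2 with a library left out. In shCTSL from Day 0 to Day 2, 1 was called with no filter, with DESeq2, with limma-voom, at the stricter cutoff and with only the groups compared, and 1 to 2 with a library left out. From Day 0 to Day 4 in shCTSL, 3 were called at the stricter cutoff and with only the groups compared (3 of the 4 tested there, without Mirg and Rtl1), and 2 to 5 with a library left out (2 without shCTSL Day 0 replicate 1, 3 without shCTSL Day 0 replicate 2 or either shCTSL Day 4 library). From Day 2 to Day 4 in shCTSL, limma-voom called 0, and the stricter cutoff and the fit of only those groups called 1. The fits of only the groups compared tested 4 of the 6 genes from Day 0 to Day 2 in shCTSL (not Mirg or Rtl1) and 5 from Day 2 to Day 4 (not Rtl1).

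At the stricter cutoff 11 imprinting factors were called from Day 0 to Day 4 in each line, and 5 flanking genes in shSC and 4 in shCTSL. Between the lines in the mean over the days, 1 factor was called with no filter and 1 with DESeq2 (Aff3 in both), 2 with limma-voom (Aff3 and Tet2), and 0 to 3 with a library left out. Of the flanking genes 0 to 1 was called with a library left out. In the Day 4 change between the lines 1 gene, Amn, was called with limma-voom and without both shCTSL Day 2 libraries, and 0 to 1 with a library left out. The cause of these differences was not tested.

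Of 2506 recomputed values of single genes, 96 calls were lost, 21 were gained and 12 values changed sign, at the values below. The change of Meg3 in shCTSL from Day 0 to Day 2 was -0.00491 with limma-voom, -0.05 and -0.12 without shCTSL Day 0 replicate 2 or shCTSL Day 2 replicate 1, and -0.12 to 0.23 over all libraries left out. From Day 0 to Day 4 it was -0.23 with length offsets, -0.01 and -0.33 without shCTSL Day 0 replicate 2 or Day 4 replicate 2, and -0.33 to 0.37 over all. From Day 2 to Day 4 it was -0.26 with length offsets, -0.16 and -0.36 without shCTSL Day 2 replicate 2 or Day 4 replicate 2, and -0.36 to 0.34 over all. That of Rian in shSC from Day 2 to Day 4 was 0.041 and 0.023 without replicate 2 of shSC Day 2 or Day 4 (-0.148 to 0.041 over all), and that of Dio3 in shSC from Day 0 to Day 2 was 0.31 without shSC Day 0 replicate 1. Without shSC Day 0 replicate 2 that change of Dio3 was -0.94 and was called (edgeR adjusted p = 0.0471). Dlk1 kept its rise from Day 0 in both lines under every alternative run, at 4.30 to 6.01.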
